A study of Mus musculus with 4 samples.

Results

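The Shh and Lmbr1 domain is the stretch of mouse chromosome 5 that holds the limb signalling gene Shh and, far to its right, Lmbr1, whose intron carries the limb enhancer of Shh. Its members were all CTCF and RAD21 peaks in the 5 lists mapped to mm10 that lie between 200 kb before Shh and 200 kb after Mnx1, so that Shh, Rnf32, Lmbr1, Nom1 and Mnx1 fall inside. This window runs from 28256815 to 29678470 on chromosome 5, which is 1.42 Mb. Peaks that overlapped were merged into sites, and the sites were numbered from left to right. The domain held 12 sites of the 33037 on the assembled chromosomes in the series, made of 34 peaks of 89856. The choice used position only and no measured value.

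CTCF and RAD21 were profiled by ChIPmentation, a chromatin immunoprecipitation in which sequencing adapters are inserted by the Tn5 transposase, in whole limbs of mouse embryos at E12.5. These embryos, called TgN(38-40) here, were of the B6CBAF1 strain and heterozygous for the transgene (TgN(38-40)/Wt), in a background homozygous for the deletion del(CS38-40)-/-, with 2 biological replicates for each antibody. They carried 1 chromosome with a transgene of the HoxD boundary region CS38-40 and lacked the native copy of that region on both homologues. Both changes lie on other chromosomes, so neither alters the Shh and Lmbr1 domain itself. The transgene came from a single insertion line. RAD21 of wild-type limbs was represented by 1 ChIP-seq library of an earlier study, with another protocol and no replicate, so genotype and protocol cannot be told apart in it. The input libraries had no peak list and were not used here. The files are peak lists without read counts, so depth is unknown and no error can be put on a single fold. Where a list has no peak at a site, the signal was under the calling threshold, and the site may still be bound.

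Shh encodes a secreted signal made in the posterior margin of the limb bud, where it sets the number and identity of the digits. Its limb expression depends on a single distant enhancer known as the ZRS, which lies in intron 5 of Lmbr1, a gene that encodes a membrane protein. CTCF is a zinc finger protein that binds a long and asymmetric DNA motif. RAD21 is a subunit of cohesin, the ring complex that extrudes chromatin loops and is held up at CTCF sites, most readily where the motifs of the sites at either end point toward each other. The strand of each motif is therefore part of the description of a CTCF site.

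The 6 sites with a CTCF peak in both replicates each held a CTCF motif within 50 bp of a CTCF summit. They are the sites to which most of the values below belong, and their sequences are shown to let the motifs be compared. Site 6 was added, chosen after its values were seen, because it has a close motif match under a peak at the bottom of its list. Capitals mark the 19 bases of the motif, read 5′ to 3′ on the strand of the motif, with 30 bases on either side, and positions are in mm10 (GRCm38) on chromosome 5.
Site 1, chr5:28294155-28294233, plus strand: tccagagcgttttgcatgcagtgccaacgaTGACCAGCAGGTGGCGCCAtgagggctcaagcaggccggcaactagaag
Site 3, chr5:28388362-28388440, minus strand: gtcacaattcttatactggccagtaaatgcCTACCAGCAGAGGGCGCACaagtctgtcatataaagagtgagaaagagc
Site 4, chr5:28451338-28451416, plus strand: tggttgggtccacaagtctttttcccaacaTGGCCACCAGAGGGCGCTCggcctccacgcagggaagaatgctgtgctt
Site 6, chr5:29036809-29036887, minus strand: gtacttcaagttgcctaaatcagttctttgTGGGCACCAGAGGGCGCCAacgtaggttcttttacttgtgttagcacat
Site 7, chr5:29293363-29293441, minus strand: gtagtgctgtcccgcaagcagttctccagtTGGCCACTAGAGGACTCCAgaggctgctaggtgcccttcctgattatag
Site 8, chr5:29336004-29336082, minus strand: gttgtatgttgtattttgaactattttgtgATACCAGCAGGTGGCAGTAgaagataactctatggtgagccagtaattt
Site 9, chr5:29389530-29389608, plus strand: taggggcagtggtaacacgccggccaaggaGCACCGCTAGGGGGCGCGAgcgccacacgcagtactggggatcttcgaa

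The motif model was learned from strong CTCF peaks elsewhere in the genome and had the consensus TGGCCACTAGGGGGCGCTA. Site 4, on the 3′ side of Shh, matched it at 16 of 19 positions and scored 23.9, higher than 99.8% of the matches under CTCF peaks of replicate 2. Site 1 matched at 14 positions and scored 22.6, higher than 98.1% of those matches. The site in intron 4 of Lmbr1, site 8, scored 18.8 (76.1%) and the Rbm33 site, site 3, scored 18.5 (73.1%), with 11 matching positions each. The lowest scores among the 6 were those of the site in intron 5 of Lmbr1, site 7, at 15.0 (39.1%, 15 matching positions), and of site 9, at 15.2 (41.1%, 14 matching positions). Sites 7 and 9 thus had middling motifs, although their CTCF peaks were in the upper parts of both lists. The score sums, over the motif, the log2 ratio of the share of each base in the model to its share in the sequences used for learning.

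Of the 12 sites, 6 had a CTCF peak in both replicates, 3 in replicate 1 only and 3 in replicate 2 only. Over the series, 73.0% of 28789 CTCF sites were found in both replicates. All 12 sites of the domain had at least 1 CTCF peak, where 86.8% of the 33037 sites did over the series. A RAD21 peak in some list lay at 7 of the 12, close to the 65.8% of all sites. Every one of the 6 CTCF sites of both replicates overlapped a RAD21 peak of TgN(38-40) replicate 2, where 56.8% of such sites did so over the series. A RAD21 peak of TgN(38-40) replicate 1 lay at 3 of the 6, against 17.6% over the series, and one of wild-type limbs at 5 of the 6, against 69.2%. None of the 6 CTCF sites of a single replicate overlapped a RAD21 peak of either TgN(38-40) replicate, where 19.7% did over the series. These are counts of few sites and carry no test.

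**Figure D1:**
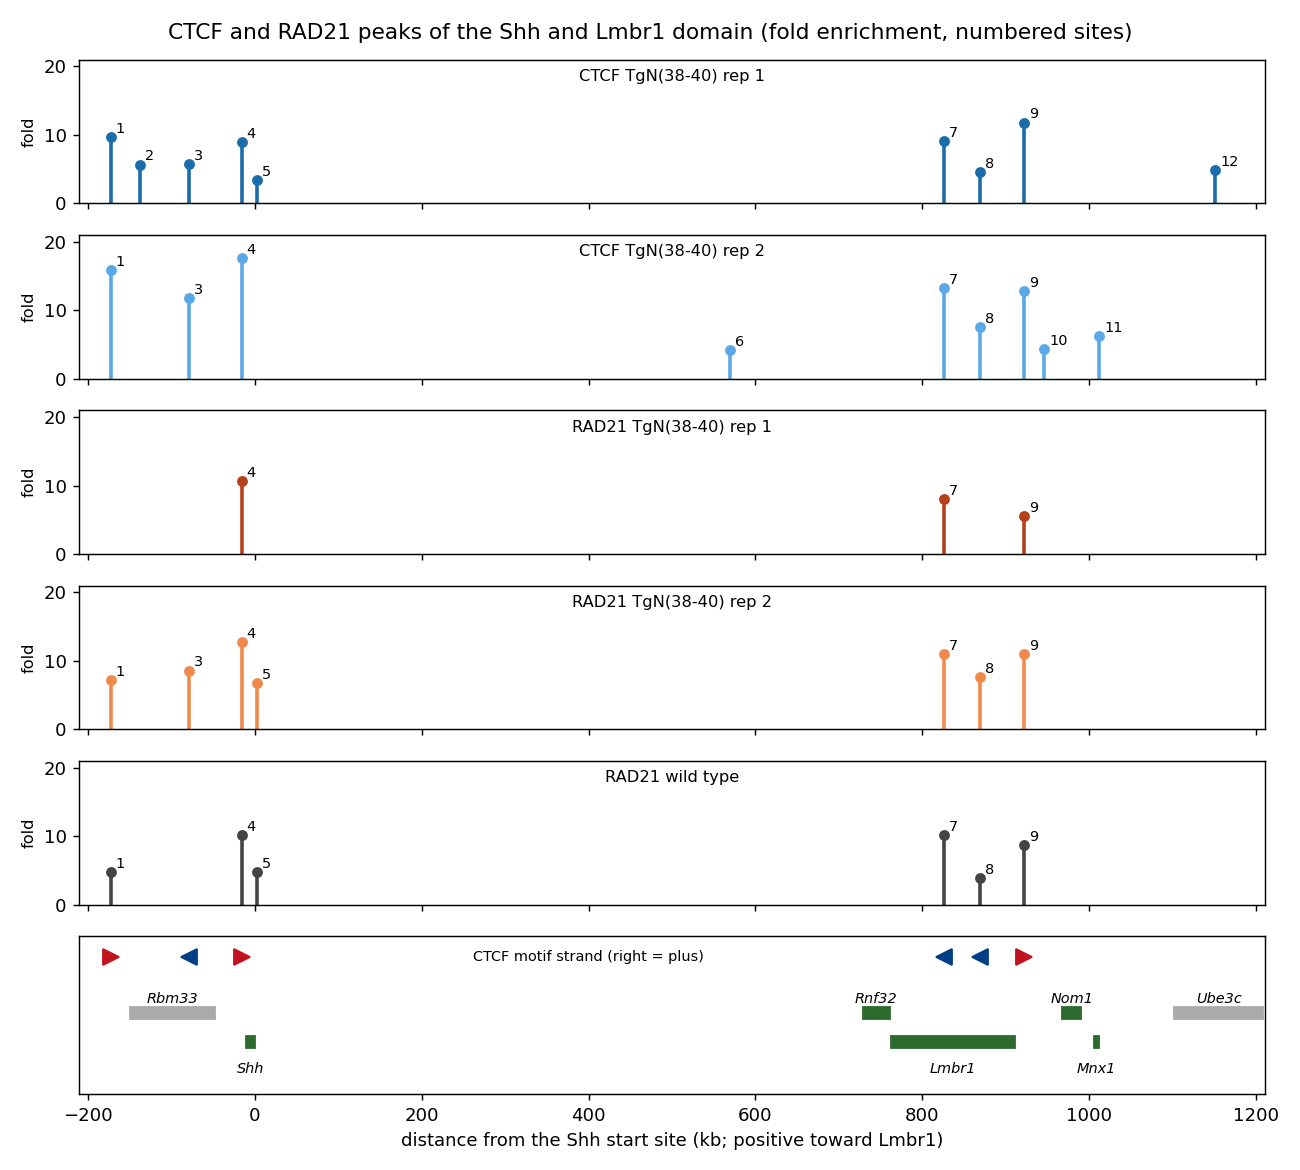
Peaks of the Shh and Lmbr1 domain in the 5 lists, plotted by the distance of the summit from the Shh start site in kb (horizontal) and the fold enrichment of the peak within its own library (vertical), with site numbers. The lowest panel shows protein-coding genes, with the 5 member genes in green, and the strand of the motif at the 6 CTCF sites of both replicates. The peaks fall into a left cluster, sites 1 to 5 around Rbm33 and Shh, and a right cluster, sites 7 to 12 from Lmbr1 to Ube3c, with only site 6 between them.

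Shh itself, from 28456815 to 28467256 on the minus strand, held no peak in its body, and a CTCF site lay on either side. Site 4, at 28451133 to 28451655 in intergenic sequence, lies 5160 bp beyond the 3′ end of Shh. Its CTCF peak reached a fold enrichment of 9.002 (replicate 1) and 17.6 (replicate 2). Within their lists these folds were higher than 87.5% and 99.7% of the peaks, at rank 2980 of 23829 and rank 69 of 26264. The deposited −log10 q of the peaks was 16.4 in replicate 1 and 45.2 in replicate 2. RAD21 at site 4 had a fold of 10.6 in TgN(38-40) replicate 1, 12.7 in TgN(38-40) replicate 2 and 10.2 in wild-type limbs. These were rank 45 of 4102, rank 544 of 14787 and rank 492 of 20874. Site 4 was the strongest RAD21 peak of the domain in each of the 3 RAD21 lists, and the strongest CTCF peak of the domain in replicate 2, while in replicate 1 it came at place 4 of 9.

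Site 5 lies on the other side, 2353 bp upstream of the Shh start site, at 28469609 to 28470161. It falls in introns of the noncoding genes 9530036O11Rik, which runs antisense to Shh, and Gm26894. It was the reverse of site 4 in its CTCF signal, with a fold of 3.44 in replicate 1, a −log10 q of 1.43 and a percentile of 0.298, and no CTCF peak in replicate 2. RAD21 was higher in its own lists there. It had a fold of 6.78 at the 41.8th percentile in TgN(38-40) replicate 2 and of 4.73 at the 52.3rd percentile in wild-type limbs, and no peak in TgN(38-40) replicate 1. The CTCF peak covered only the left part, from 28469623 to 28469806, and ended 14 bp short of the RAD21 peak of replicate 2, at 28469821 to 28470085. The wild-type RAD21 peak spanned both. No motif was called within 50 bp of the CTCF summit on mm10. On the custom genome of the line the same peak had its summit at 28469645, where a match scored 12.3, so this absence depends on the place of the summit. The best match near the RAD21 summits, on the plus strand at 28469963 to 28469981, scored 13.9. In the 2 RAD21 lists with a peak, RAD21 was thus called next to the Shh promoter at a place where CTCF was at the bottom of one list and not called in the other. The peak of TgN(38-40) replicate 2 there was the only RAD21 peak of TgN(38-40) limbs in the domain that overlapped no CTCF peak. Over the series, 91.1% of the RAD21 peaks of replicate 2 overlapped a CTCF peak, and in the domain 6 of 7 did.

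Lmbr1, from 29229802 to 29378390 on the minus strand, held 2 sites in its body. Site 7, at 29293136 to 29293643, lies in intron 5 of the main transcript, the intron that carries the ZRS, and the centre of its motif is 452 bp from the 3′ end of that intron of 30852 bp. The position of the enhancer within the intron is not given in the files, so no distance to it was computed. CTCF at site 7 reached a fold of 9.09 (replicate 1) and 13.2 (replicate 2), at percentiles of 88.4 and 95.005, with −log10 q of 14.3 and 24.2. RAD21 had a fold of 7.99 in TgN(38-40) replicate 1, 10.994 in TgN(38-40) replicate 2 and 10.2 in wild-type limbs, at percentiles of 89.1, 89.1 and 97.6. Site 7 was one of 3 sites of the domain with a peak in all 5 lists, together with sites 4 and 9. Over the series 11.0% of the sites had a peak in all 5, and the domain had 3 of 12. Its CTCF peak took place 3 in the domain in both replicates.

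Site 8, at 29335861 to 29336164 in intron 4 of Lmbr1, was weaker. CTCF reached a fold of 4.60 (replicate 1) and 7.51 (replicate 2), at percentiles of 9.38 and 48.6. RAD21 had a fold of 7.64 in TgN(38-40) replicate 2 and 3.87 in wild-type limbs, at percentiles of 55.3 and 38.8, and no peak in TgN(38-40) replicate 1. Site 8 had a higher motif score than site 7 and ranked below it in all 4 lists that held both. The CTCF peak of replicate 1 at site 8 did not reach its motif, and its summit lay 108 bp away.

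Site 9, at 29389195 to 29389929, is the first site to the right of Lmbr1, 10805 bp upstream of its start. It lies wholly inside exon 2 of the long noncoding gene 4632411P08Rik, at 29388765 to 29390488, which is transcribed away from Lmbr1. It held the strongest CTCF peak of the domain in replicate 1, with a fold of 11.8, and that at place 4 in replicate 2, with a fold of 12.8, at percentiles of 98.9 and 93.6. RAD21 there had a fold of 5.52 in TgN(38-40) replicate 1, 11.003 in TgN(38-40) replicate 2 and 8.72 in wild-type limbs. The RAD21 ranks were 2933 of 4102, 1613 of 14787 and 1832 of 20874. The list of replicate 1 is much shorter, so its rank is not set against the other lists. The sequence of site 9 held 13 CpG dinucleotides in 735 bp. The other 5 CTCF sites of both replicates held 2 to 6 but were shorter, at 286 to 523 bp, so part of this difference is length.

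On the far side of Shh from its limb enhancer, CTCF was bound at site 1, at 28293988 to 28294494, 22627 bp before the start of Rbm33, which encodes an RNA-binding protein. CTCF reached a fold of 9.62 (replicate 1) and 15.8 (replicate 2), at percentiles of 92.1 and 99.1. This was second in the domain in both replicates. RAD21 did not stand as high in its lists. It had a fold of 7.21 at the 48.6th percentile in TgN(38-40) replicate 2 and of 4.76 at the 52.9th percentile in wild-type limbs, with no peak in TgN(38-40) replicate 1. Over the series, 1209 CTCF sites were at or above the 90th percentile of both CTCF lists. RAD21 of replicate 2 had a peak at 954 of them, with a median percentile of 78.5, and at 32.3% of those it was at or below the 60th percentile, so site 1 was not rare in this.

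Site 3, at 28388241 to 28388526 in an intron of Rbm33, differed between the replicates. CTCF reached a fold of 5.69 (replicate 1) and 11.7 (replicate 2), which is the 32.2nd and the 89.3rd percentile. The difference of 57.1 percentile points exceeds the 90th percentile of such differences over the series, which is 40.5 points, while the median is 15.0 points. Site 8 came next with 39.3 points, and the other 4 sites of both replicates differed by 5.31 to 12.2 points. In replicate 1 the CTCF summit of site 3 lay 133 bp from the motif, and in replicate 2 it lay 20 bp from it. RAD21 at site 3 had a fold of 8.58 in TgN(38-40) replicate 2, at the 67.8th percentile, and no peak in TgN(38-40) replicate 1 or in wild-type limbs.

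**Figure D2:**
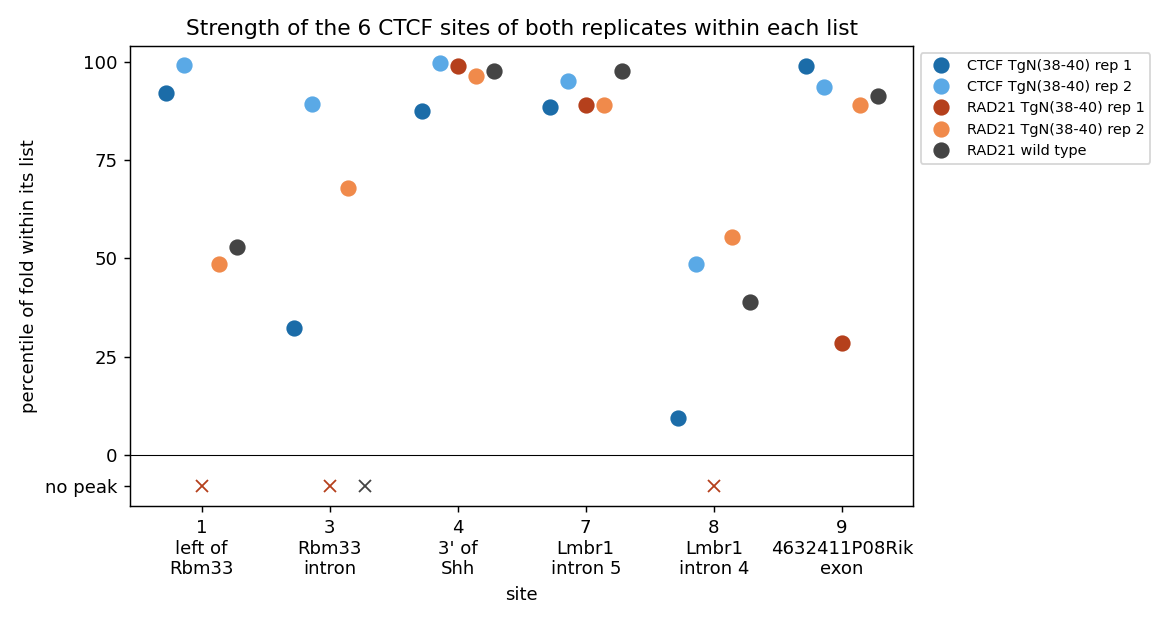
Percentile of the fold enrichment within its own list (vertical, 100 being the strongest) for the 6 CTCF sites of both replicates (horizontal), with a point for each list and a cross where the list had no peak. Sites 4 and 7 are at or above 87.5 in every list, site 1 is high for CTCF and near 50 for RAD21, and sites 3 and 8 are the most spread between the CTCF replicates.

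The member genes Rnf32, which encodes a RING finger protein and neighbours Lmbr1, and Nom1, which encodes a nucleolar protein, had no peak in their bodies or within 10 kb. Mnx1, a homeobox gene best known for its role in motor neurons, had site 11, a CTCF peak of replicate 2 only, 870 bp upstream of its start at 29479340 to 29479559. Its fold was 6.26, at the 30.8th percentile, and its motif scored 10.7 on the minus strand. The nearest CTCF site to the left of Lmbr1 was site 6, at 29036797 to 29036952, 159040 bp to the left of Rnf32. Its peak was in CTCF replicate 2 only, with a fold of 4.14 at the 1.21st percentile, near the bottom of the list. Its motif nevertheless scored 18.99, above those of sites 3, 7, 8 and 9. Sites 2, 10 and 12, in Rbm33, between 4632411P08Rik and Nom1, and in Ube3c, had a CTCF peak in 1 replicate only, with folds of 4.38 to 5.66 and percentiles of 2.43 to 31.7, and no RAD21 peak.

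Setting the RAD21 lists of TgN(38-40) limbs beside that of wild-type limbs, 6 of the 7 sites with a RAD21 peak in some list had one in TgN(38-40) replicate 2 and in wild-type limbs alike, where 63.3% of 21748 such sites did over the series. The seventh was site 3, with a peak in TgN(38-40) replicate 2 only. TgN(38-40) replicate 1, which had 4102 peaks in all against 14787 in replicate 2 and 20874 in wild-type limbs, kept sites 4, 7 and 9. In order of fold, the first 3 sites of each list were the same, 4, 7 and 9 in TgN(38-40) replicate 1, 4, 9 and 7 in TgN(38-40) replicate 2, and 4, 7 and 9 in wild-type limbs. The folds of sites 9 and 7 in TgN(38-40) replicate 2 (11.003 and 10.994) and those of sites 4 and 7 in wild-type limbs (10.2 each) were nearly equal, so the order within these pairs says little. CTCF of wild-type limbs was not analysed here.

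From site 4, to the left of Shh, to site 7, inside Lmbr1, the domain was empty of CTCF sites of both replicates over 841.5 kb. This stretch holds the whole of Shh and Rnf32 and part of Lmbr1. Among 20702 gaps between neighbouring CTCF sites of both replicates on the autosomes, 384, or 1.85%, were as long or longer, 23 of them on chromosome 5, and the median gap was 43.2 kb. Here and for the RAD21 lists, the gap was picked as the longest in the domain, and the share counts gaps rather than sequence. A long gap covers more of the genome than such a share shows. How often a window of this length holds a gap this long was not computed. Most of this stretch was also empty of RAD21 peaks, over 823.1 kb in TgN(38-40) replicate 2 and 823.0 kb in wild-type limbs, each from site 5 to site 7. Gaps of that length made up 2.87% and 1.65% of the gaps of those lists. In TgN(38-40) replicate 1, with fewer peaks, the gap was 841.7 kb, and 20.2% of the gaps of that list were as long or longer. When CTCF sites of a single replicate were included, site 6 divided the stretch, and the longest gap was 567.0 kb between sites 5 and 6.

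The motifs at the ends of the 841.5 kb gap pointed toward each other. Site 4 is on the plus strand and points toward Lmbr1, and site 7 is on the minus strand and points toward Shh, with 842.0 kb between the motif centres. Of the 5 pairs of neighbouring CTCF sites of both replicates, 2 converged, the pair of sites 4 and 7 and the pair of sites 1 and 3. Over the series 24.8% of 13888 such pairs converged, and among the 551 pairs at least 500 kb apart 41.0% did. Sites 3 and 4, 62.6 kb apart, and sites 8 and 9, 53.1 kb apart, pointed away from each other. Sites 7 and 8, 42.2 kb apart, were in tandem, so that both sites inside Lmbr1 point toward Shh. Site 9, the next to the right, points away from Shh, so that the diverging pairs lie to the left of Shh and across the start of Lmbr1.

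**Figure D3:**
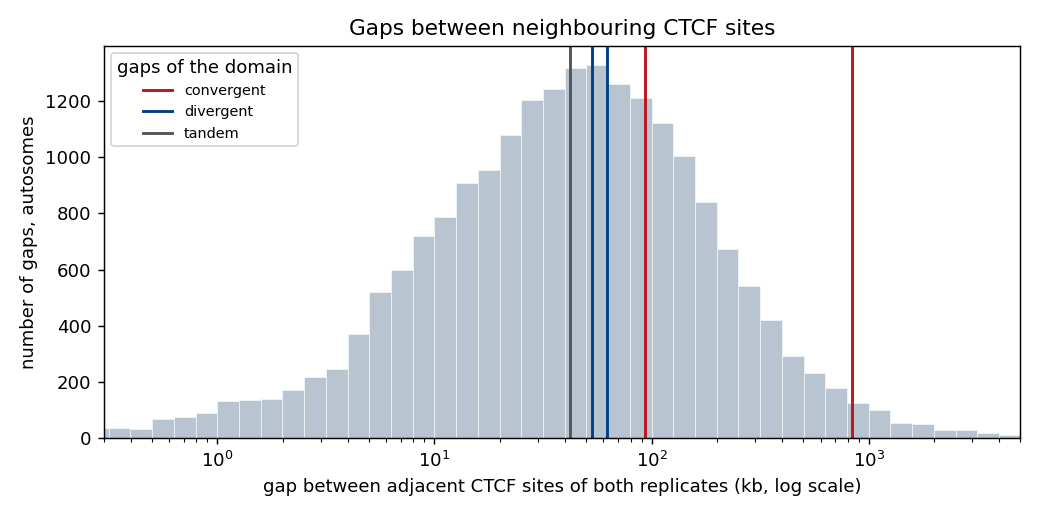
Number of gaps between neighbouring CTCF sites of both replicates on the autosomes (vertical) by gap length in kb on a log scale (horizontal), with the 5 gaps of the domain as lines coloured by the orientation of the motifs at their ends. The gap of 841.5 kb between site 4 beside Shh and site 7 in Lmbr1 lies in the far right tail and is convergent, while the other 4 gaps, 42.2 to 93.7 kb, lie in the bulk.

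The summits of the RAD21 peaks lay mostly on the 3′ side of the motif, the side to which it points. In wild-type limbs all 5 RAD21 summits at the sites of both replicates were 18 to 28 bp from the motif centre on that side, with a median of 23 bp. In TgN(38-40) limbs 7 of 9 RAD21 summits were on that side, with a median of 40 bp and a range of −11 to 98 bp. They lay at 98, 65 and 39 bp in replicate 1, at sites 4, 7 and 9. In replicate 2 they lay at 6, −2, 47, 88, 40 and −11 bp, at sites 1, 3, 4, 7, 8 and 9. The CTCF summits were divided 6 to 6, with a median of 4.5 bp and a range of −37 to 133 bp. These TgN(38-40) medians pool the replicates, so they are not like the series medians, which are per list. Over the series the medians were 14 and 12 bp for RAD21 of TgN(38-40) replicates 1 and 2, 20 bp for RAD21 of wild-type limbs, and 2 and 3 bp for CTCF. The share of summits on the 3′ side was 62.7% and 63.5% in the TgN(38-40) RAD21 lists, 87.5% in the wild-type RAD21 list, and 52.4% and 54.5% in the CTCF lists. At the intron 5 site of Lmbr1, site 7, the RAD21 summits lay 65 and 88 bp to the Shh side of the motif in TgN(38-40) limbs and 28 bp to that side in wild-type limbs. At site 4, beside Shh, they lay 98, 47 and 23 bp to the Lmbr1 side, in the same order of lists.

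**Figure D4:**
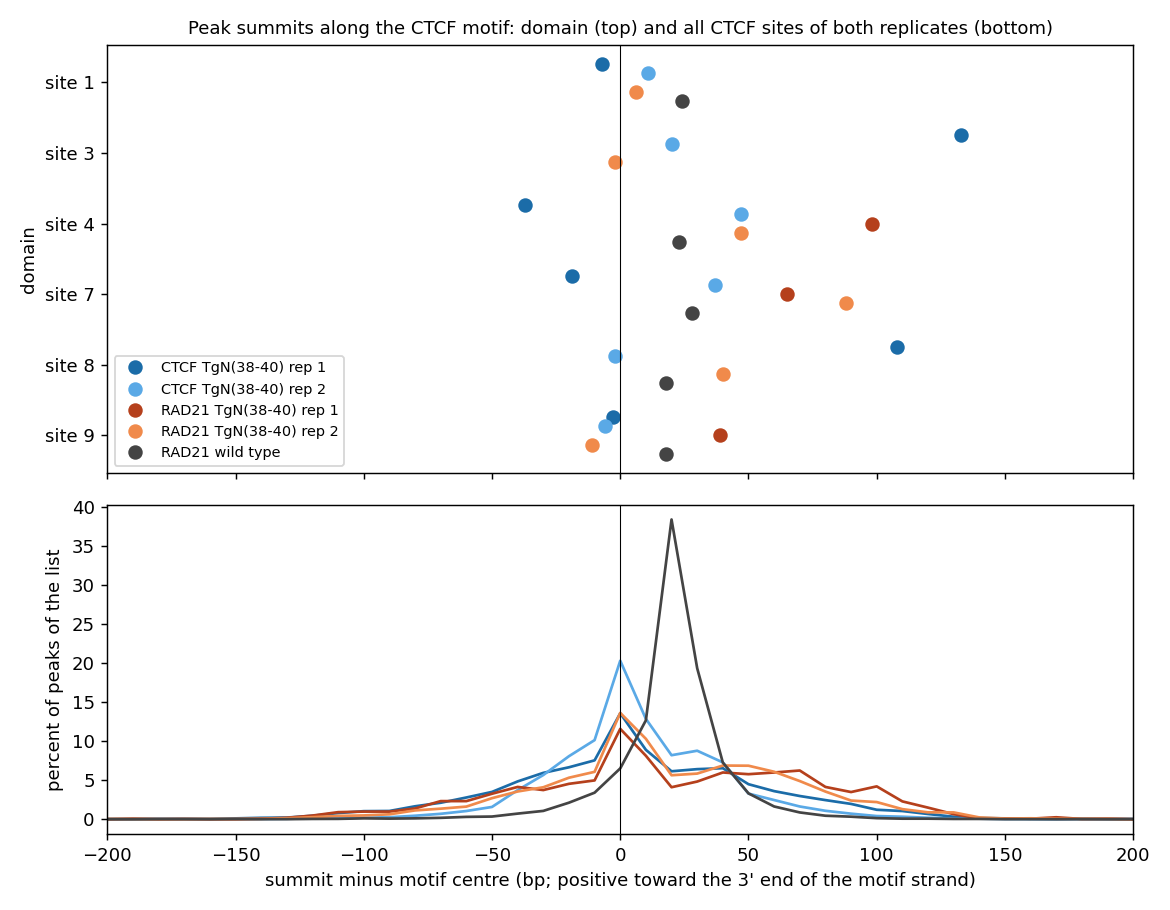
Distance of each peak summit from the centre of the CTCF motif in bp (horizontal, positive toward the 3′ end of the motif strand), at the 6 CTCF sites of both replicates of the domain (top) and as the percent of all peaks of each list at such sites over the series, in bins (bottom). The wild-type RAD21 summits of the domain, at 18 to 28 bp, fall on the peak of their list, and the TgN(38-40) RAD21 summits are more spread.

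The motif was also present without a peak. Within the window 17 matches scored at least 15.0, the lowest score among the 6 sites of both replicates, and 7 of these were at a site. The other 10 were in no peak of any list. On the autosomes 45.6% of 37116 such matches were at a site. The score limit was taken from the 6 sites, which are therefore among the 7 by construction. The count of the domain and the general share are thus not built alike, and nothing is concluded from setting them side by side. Of these 10, 5 lay in the 841.5 kb gap, at 28519256, 28700241, 29003072, 29204823 and 29274937, all on the minus strand, and scored 15.4 to 19.3. The strongest match without a peak, at 29560846 on the plus strand, scored 19.4. Taken by peak, 8 of 9 CTCF peaks of replicate 2 in the domain held a motif within 50 bp of the summit, where 66.0% did over the series, and 4 of 9 of replicate 1 did, where 51.3% did. The ninth peak of replicate 2 was that of site 4, whose motif centre lay 47 bp from the summit, so that the motif was not wholly within 50 bp.

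The density of sites was within the usual range for a window of this length. The domain held 12 CTCF sites of either replicate, or 8.44 per Mb, and 46.5% of 1723 equally long autosomal windows held as few or fewer, with a median of 14. Of CTCF sites of both replicates it held 6, with a median of 10 over the windows, and 35.9% of the windows held as few or fewer. RAD21 had 3 peaks in TgN(38-40) replicate 1 (median 2, as few or fewer in 72.9% of windows), 7 in TgN(38-40) replicate 2 (median 8, 47.5%) and 6 in wild-type limbs (median 11, 29.1%). The sites were placed at the ends, and only site 6 lay between sites 5 and 7. Beyond the window the next CTCF peak to the right was 8981 bp away, and the next to the left 133359 bp away.

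When the reads of TgN(38-40) limbs were mapped to the custom genome of the transgenic line instead, the domain was nearly the same. All 9 CTCF peaks of replicate 1 and all 7 RAD21 peaks of replicate 2 were found again. CTCF replicate 2 had 9 peaks, of which 8 were shared and 1, at site 12, was called on the custom genome alone. The peak of site 6 was not called on the custom genome, so the only peak between site 5 and Lmbr1 depended on the mapping. RAD21 replicate 1 kept 2 of its 3 peaks and lost that of site 9. The custom lists had other read filtering as well as another sequence, and which of them moved these calls was not tested.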

How the data were processed

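ChIPmentation of CTCF and RAD21 in E12.5 whole limbs was deposited as peak lists, per replicate. The authors mapped reads to mm10 or to the custom genome of the line and called peaks with MACS2 at default parameters. Tools named in the submitters' notes on processing are MACS2 2.1.1.20160309, Bowtie2 2.3.4.1 and 2.3.5, SAMtools 1.9, Picard 2.19 and cutadapt 1.16. The control used for calling is not given in the sources used here. In the deposited lists the fold enrichment of a peak is a ratio of pileup over local background. Beside it the authors deposited −log10 of p-values and q-values, with every q under 0.05. Each list was made within 1 library.

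Peaks that shared 1 bp or more were taken as overlapping. Ranks by fold were set within a list, never between lists. A percentile is the share of the peaks of a list with the same or a lower fold, the peak itself included. The 19 bp motif model was learned from 2000 peaks of CTCF replicate 2, the strongest after the first 100, outside chromosomes 5 and 18. A motif was called at the score reached by 5% of flanking sequences, 5.01. Sequence was GRCm38.p6 from RefSeq and annotation GENCODE M21. No p-values were computed, because 2 replicates and 1 wild-type library allow no test, and peaks are not replicates.

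Full values were given for sites in the body or within 10 kb of the 5 member genes, the nearest CTCF sites on either side of Shh and of Lmbr1, and the 5 CTCF sites with the highest mean percentile. Members, lists and this rule were chosen with earlier results of these data known. The scan of the window for motifs, the orientation of pairs, the summit distances, the comparison of replicate percentiles and the RAD21 ranks at strong CTCF sites were added after the values were seen. Alternatives were stricter q, other overlaps, other flanks, leaving out a replicate, the custom genome, other motif settings and ranks by −log10 q. The motif search and overlap were tested on simulated data. There, 100% of the motifs planted in 600 sequences were found on the right strand, and 100% of 1000 simulated pairs of peaks were called right. The motif share counts planted motifs only, so it checks that the search works on such sequences. It does not measure how often a motif or its strand was called right in the real peaks. The work was done in Python 3.11.15, numpy 2.4.6, pandas 2.3.3 and matplotlib 3.10.9.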

Additional observations from a re-analysis of the deposited data

Results flagged for a closer look

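The comparisons between lists rest on mm10, and the 1 CTCF peak of replicate 2 called on the custom genome alone lies outside them. It is in the Ube3c intron at site 12, starts at 29618253 and had a fold of 5.88. Replicate 1 had a CTCF peak at that site on both genomes, so site 12 would be a CTCF site of both replicates on the custom genome. A motif on the minus strand at 29618396 to 29618414, with a score of 17.7, lies just to the right of these peaks and overlaps none of them. It is within 50 bp of the replicate 2 summit on the custom genome, at 29618366, so it counts as a called motif for that peak. On mm10 no motif was called at site 12.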

How the results depend on the processing

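Of 73 values under alternatives, 60 stayed within 1.5 times the main count or within the spread of the ranks, and 13 moved. Most values are counts, which have no direction that could reverse. The spread of the ranks was 40.4 percentile points, so wide that a fall of the median CTCF percentile from 68.1 to 32.2 was counted as staying. The 60 are therefore a loose measure of stability. With only peaks of −log10 q of at least 10, 7 sites remained, 5 of them with CTCF, at 3.52 CTCF sites per Mb, and 5 with a motif. With no flank around the member genes there were 6 sites, all 6 with CTCF, 3 found in both replicates and 5 with a motif. At 3 of them a CTCF peak overlapped a RAD21 peak of TgN(38-40) limbs. Site 5 is not among these 3, because its RAD21 peak of replicate 2 lay beside the CTCF peak. Requiring CTCF in both replicates left 6 CTCF sites, or 4.22 per Mb. Leaving out 1 replicate at a time gave 9 to 12 sites, 9 CTCF sites, 6.33 CTCF sites per Mb, 3 to 6 CTCF sites with RAD21 of TgN(38-40) limbs, 5 to 6 with RAD21 of wild-type limbs, 4 to 8 with a motif, and a median CTCF percentile of 32.2 to 89.3, where the main value was 68.1. Without RAD21 replicate 2 the RAD21 sites of TgN(38-40) limbs were 3, and without CTCF replicate 2 the motif sites were 4. The cause was not tested beyond the smaller sets of peaks. The motif and its strand at each of the 6 CTCF sites of both replicates were the same with a search within 100 bp and with the model of replicate 1. No paired analysis was possible because the results come from no test, and the replicate numbers are not said to link the antibodies. With no read counts, depth could not be set against any of these values, and the wild-type library has no replicate.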
